A study of Mus musculus with 70 samples.

Results

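The genes described here code for 7 cell-surface and matrix molecules that act while a leukocyte crosses a vessel wall: F11r, Lamc1, Jaml, Pecam1, Icam1, Icam2 and Cd47. They are 7 of the 52636 genes in a bulk RNA-seq table of sorted leukocytes from a mouse study of chronic social defeat stress (CSDS). F11r and Lamc1 were selected on their measured difference between stress-susceptible and control mice in monocytes of these same libraries, and the other 5 were added for their role. The SUS vs. CON values of these 7 genes in monocytes are therefore given as a description, without a p-value, and support nothing here.

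C57BL/6J mice, bought at 7 weeks of age, spent 10 days with daily defeat by aggressive CD-1 mice for 10 min and sensory contact in between. A social interaction test 24 h after the last defeat divided them by a ratio of 1 into stress-susceptible (SUS) and resilient (RES) mice, and unstressed control (CON) mice were not defeated. No group carried a named allele or drug, and the sample labels give neither sex nor which libraries came from 1 mouse. T cells, B cells and the Ly6C-high and Ly6C-low monocytes were separated with antibodies to CD11b, Ly6C, Ly6G, B220 and CD90.2. The study's methods describe these cells as blood leukocytes, whereas the sample labels name brain as the source. There were 6 libraries in each of the 12 combinations of cell type and group, except 4 for Ly6C-low monocytes of CON mice and 5 each for B cells and T cells of RES mice. The 68 libraries held 19769835 to 67038231 counts each (median 37105583.5). A further 2 libraries were left out, since library 52, labelled B cells, held the T cell gene Cd3e at 412.5 CPM and the B cell gene Cd79a at only 5.76 CPM, while in library 70, labelled T cells, Cd79a stood at 1417 CPM and Cd3e at 0.143 CPM. In the libraries kept, the summed level of 4 marker genes of the labelled cell type was 3974 to 8206 CPM in Ly6C-high monocytes, 3688 to 5445 CPM in Ly6C-low monocytes, 3302.5 to 4815 CPM in B cells and 1118 to 1619 CPM in T cells. No marker of a labelled type averaged under 1 CPM in it. The labels name no mouse, so the p-values measure only the spread between these libraries. Levels are given as CPM, a gene's share of a library's scaled total count, after scaling all 68 libraries together. In these bulk libraries, more expressing cells in a sort and more RNA per cell cannot be told apart.

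To leave the blood, a leukocyte first arrests when its β2 integrins bind ICAM-1 and ICAM-2 on the endothelium. It then passes between endothelial cells by contacts of PECAM-1, CD47 and the junctional adhesion molecules, and finally crosses a basement membrane built from laminin. F11r encodes junctional adhesion molecule A (JAM-A), an immunoglobulin-type protein of tight junctions, platelets and leukocytes that binds itself and the integrin LFA-1. Jaml encodes a related leukocyte protein whose partner on epithelium is the coxsackievirus and adenovirus receptor, Cxadr. Lamc1 encodes laminin γ1, a chain shared by most laminin trimers. Cd47 encodes the ligand of SIRPα, known as a signal that restrains phagocytosis.

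F11r (ENSMUSG00000038235) lies on chromosome 1 of GRCm38 from 171437535 to 171464603 on the plus strand. Jaml (ENSMUSG00000048534) lies on chromosome 9 from 45079183 to 45108534 on the plus strand. The sequence upstream of these 2 genes is shown because their levels moved together across Ly6C-high libraries of stressed mice, and their start regions differ in base composition. RefSeq promoter windows (GRCm38.p6) were found for 4 of the 7 genes, F11r, Jaml, Icam1 and Cd47, and not for Lamc1, Pecam1 and Icam2. Capitals mark matches to the motifs that were searched on both strands. These were the GC box GGGCGG, the PU.1 core GAGGAA, the GATA motif AGATAA, the AP-1 motif TGANTCA, the E-box CACGTG and the TATA box TATAAA.
F11r, chr1:171437311-171437526, plus strand: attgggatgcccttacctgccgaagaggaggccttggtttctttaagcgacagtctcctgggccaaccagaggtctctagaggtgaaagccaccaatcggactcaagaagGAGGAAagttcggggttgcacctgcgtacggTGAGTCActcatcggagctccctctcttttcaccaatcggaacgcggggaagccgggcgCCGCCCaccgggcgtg
Jaml, chr9:45078933-45079182, plus strand: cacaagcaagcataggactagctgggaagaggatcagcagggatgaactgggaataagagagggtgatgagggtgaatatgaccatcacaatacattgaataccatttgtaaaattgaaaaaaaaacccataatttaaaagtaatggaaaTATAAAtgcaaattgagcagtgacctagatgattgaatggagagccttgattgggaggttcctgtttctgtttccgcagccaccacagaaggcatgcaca

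In the F11r window of 250 bases before the RefSeq start site, 34 bases lay in annotated exons, and the last 34 bases are not shown. The exon bases need not all lie at that end. The whole F11r window held 17 CpG dinucleotides and the Jaml window held 1. Upstream of F11r, the PU.1 core began 140 bases, the AP-1 motif 109 bases and the GC box, read on the minus strand, 50 bases before the RefSeq start. Upstream of Jaml, the TATA box began 100 bases before the start. Of all 32851 windows of this length, 23.3% held the PU.1 core, 6.75% the AP-1 motif, 32.7% the GC box, 12.4% the TATA box, 9.99% the GATA motif and 6.02% the E-box. Icam1 had 1 GC box and Cd47 had 2, and the GATA motif and E-box were in none of the 4 windows. A match describes the letters only and says nothing of whether a factor binds there.

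Ly6C-high monocytes are the inflammatory blood monocytes that enter tissue, and the question of this comparison was whether defeat changed their transcripts. In CON mice, F11r ranged from 0 to 3.08 CPM with a median of 2.25, and 1 of 6 libraries had no count. In SUS mice it ranged from 5.95 to 117.8 CPM with a median of 63.3. In RES mice it ranged from 1.27 to 61.5 CPM with a median of 9.54. Every SUS library lay above every CON library, 5 of 6 RES libraries did so, and the SUS libraries spread over a wide range, with 3 at 102.2 to 117.8 CPM and 3 at 5.95 to 24.3 CPM. The log2 fold change was 5.17 (SE 1.15) for SUS vs. CON mice. It was 3.41 (SE 1.07) for RES vs. CON mice, which did not pass (adjusted p = 0.0754, edgeR's quasi-likelihood test). The CON libraries of this comparison helped to choose F11r, so its p-values are not independent of that choice. Without RES library 12, the lowest of that group, the RES vs. CON value was 3.67 and passed (adjusted p = 0.0445 in edgeR), as it did with DESeq2 (3.34, adjusted p = 0.0127). It was 2.53 without RES library 18, the highest of that group (adjusted p = 0.206, edgeR).

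Lamc1 (ENSMUSG00000026478, chromosome 1, 153218922 to 153332786, minus strand) ranged from 1.49 to 6.03 CPM with a median of 4.32 in CON mice. The SUS libraries held 26.7 to 104.0 CPM with a median of 73.3. The RES libraries held 3.12 to 71.2 CPM with a median of 22.0. It overlaps Gm38009 on its own strand and Gm8818 on the other, which had at most 64 and 131 counts in any library. No SUS library overlapped the CON range, whereas the RES libraries fell on both sides: 3 lay at 3.12, 5.31 and 5.41 CPM, inside the CON range, and 3 at 38.7, 56.3 and 71.2 CPM. The log2 fold change was 4.13 (SE 0.72) for SUS vs. CON mice. The CON libraries also helped to choose Lamc1, so its p-values for RES vs. CON mice are not independent of that choice. In that comparison Lamc1 rose by 2.91 on the log2 scale (SE 0.68, adjusted p = 0.0262, edgeR's quasi-likelihood test). This call was lost when any of CON libraries 1, 4, 7 and 10 or RES libraries 9, 15 and 18 was left out, at log2 fold changes of 2.46 to 3.05 and adjusted p-values of 0.0505 to 0.0749.

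Jaml ranged from 7.64 to 15.2 CPM (median 11.1) in CON mice, from 7.35 to 52.2 CPM (median 37.3) in SUS mice and from 7.46 to 31.7 CPM (median 18.1) in RES mice. In SUS mice 5 of 6 libraries lay above every CON library and library 5 lay below all of them, and in RES mice 4 of 6 lay above. The log2 fold change was 1.57 (SE 0.36) for SUS vs. CON mice and 0.74 (SE 0.36) for RES vs. CON mice (adjusted p = 0.234, edgeR's quasi-likelihood test).

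**Figure D1:**
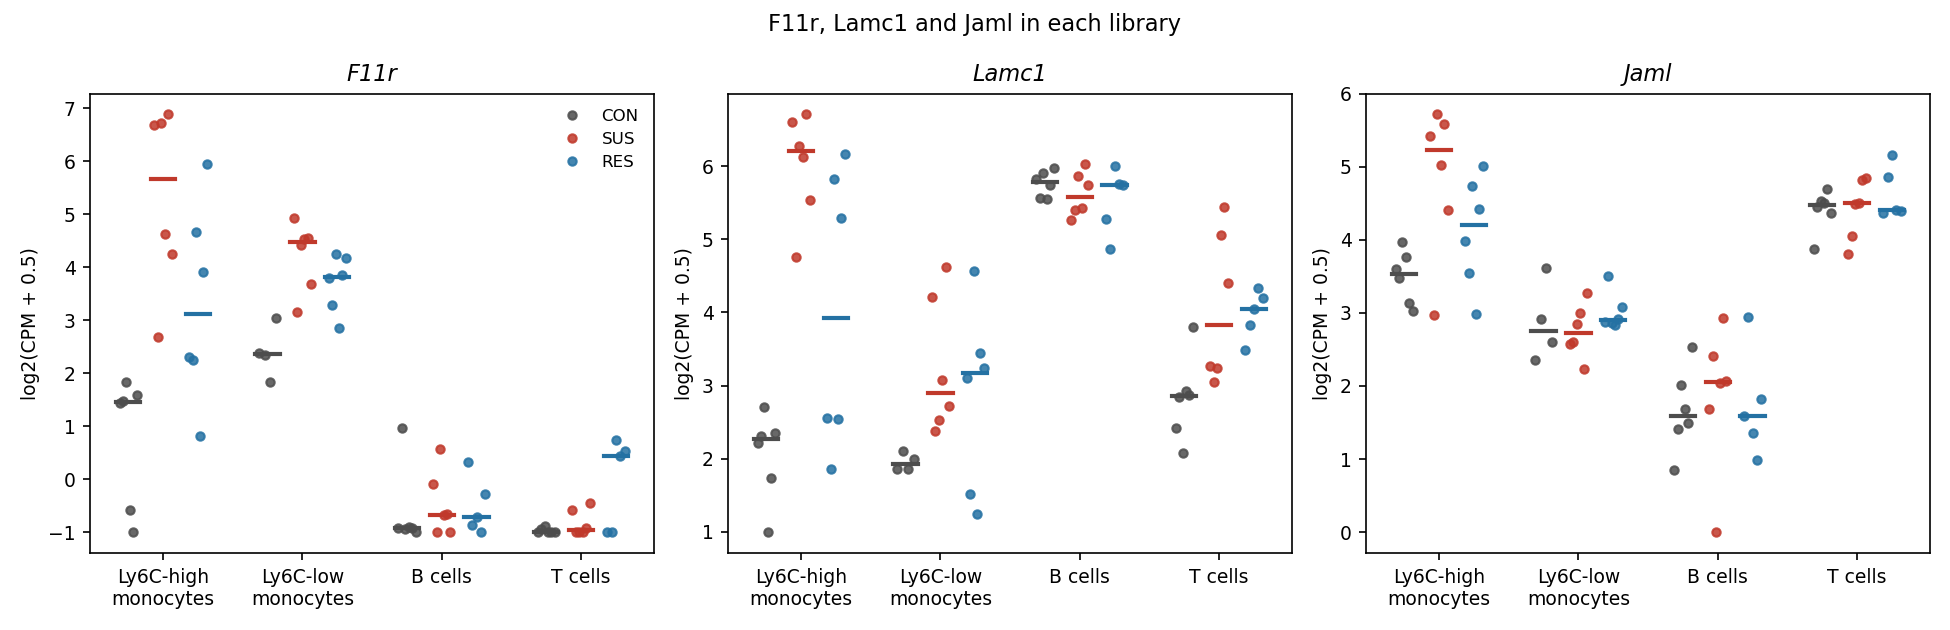
Level of F11r, Lamc1 and Jaml as log2(CPM + 0.5) in each of 68 libraries (points) by sorted cell type and group, with the group median as a line. In Ly6C-high monocytes the SUS libraries lie above the CON libraries for F11r and Lamc1, and the RES libraries of Lamc1 fall into 3 low and 3 high ones.

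Pecam1 (ENSMUSG00000020717, chromosome 11, 106654217 to 106750628) and Icam2 (ENSMUSG00000001029, chromosome 11, 106377656 to 106388075) lie on the minus strand. Icam1 (ENSMUSG00000037405, chromosome 9, 21015985 to 21028817) and Cd47 (ENSMUSG00000055447, chromosome 16, 49800533 to 49915010) lie on the plus strand. Jaml and Icam1 overlap Gm10684 and Gm47079 on the other strand, which had at most 71 and 78 counts in any library. Pecam1, Icam1, Icam2 and Cd47 differed less in Ly6C-high monocytes. Icam1, a β2 integrin ligand, was at 63.7 to 103.6 CPM (CON), 71.04 to 135.6 (SUS) and 86.0 to 188.6 (RES), with medians of 76.5, 107.3 and 131.5. Its median was higher in RES than in SUS mice, and 4 of 6 RES libraries lay above every CON library. Its RES vs. CON log2 fold change of 0.67 (SE 0.18) had an adjusted p of 0.0343 in edgeR but stayed under the fold limit of 1 that a call required. Icam2 was at 10.2 to 18.8 CPM (CON), 15.6 to 36.2 (SUS) and 8.44 to 24.4 (RES). Its log2 fold change was 0.57 (SE 0.25) in SUS and 0.26 (SE 0.25) in RES mice. Pecam1 (-0.01, SE 0.25) and Cd47 (-0.16, SE 0.13) had SUS vs. CON differences below their standard error or little above it.

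A gene was called where edgeR's quasi-likelihood test gave it an adjusted p below 0.05 and its log2 fold change was larger than 1 in either direction. In Ly6C-high monocytes 3 of the 7 genes (F11r, Lamc1 and Jaml) were called for SUS vs. CON, beside 3.45% of all 16955 genes tested. Since these values chose F11r and Lamc1, nothing is read from that count. Between RES and CON mice 1 of 7 was called, Lamc1, beside 0.997% of genes tested (169 calls by edgeR and 255 by DESeq2, which called F11r as well). This comparison shares its CON libraries with the one that chose F11r and Lamc1. The median log2 fold change was 0.57 over the 7 genes against -0.05 over all genes for SUS vs. CON mice, and 0.67 against -0.03 for RES vs. CON mice. These medians include F11r and Lamc1, so nothing is read from them either. Between SUS and RES mice none was called, as was the case for 0% of all genes by edgeR, with 620 genes at an unadjusted p under 0.05 and 11 calls by DESeq2. There F11r differed by 1.75 (SE 0.98), Lamc1 by 1.22 (SE 0.64) and Jaml by 0.82 (SE 0.36) on the log2 scale, each with an adjusted p of 0.999 in edgeR. The SUS libraries enter both this comparison and the one behind the choice of F11r and Lamc1.

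F11r, Lamc1 and Jaml followed each other across the libraries of SUS and RES mice. How many other genes did so was not counted, and none of the 5 genes most like F11r in the 18 Ly6C-high libraries was a member. Among the SUS libraries the same 3 (2, 8 and 14) were highest in all 3 genes and library 5 was lowest in all 3. Among the RES libraries the same 3 (9, 15 and 18) were highest, and the order of Jaml matched that of F11r in 6 of 6 libraries. Icam1 also had its 3 highest RES libraries in common with F11r, but only 1 of its 3 highest SUS libraries. Icam2, in turn, shared all 3 of its highest SUS libraries with F11r. Cd47 shared 1 of 3 in each stressed group. Among the CON libraries Lamc1 shared its 3 highest with F11r, and Jaml shared 1.

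**Figure D2:**
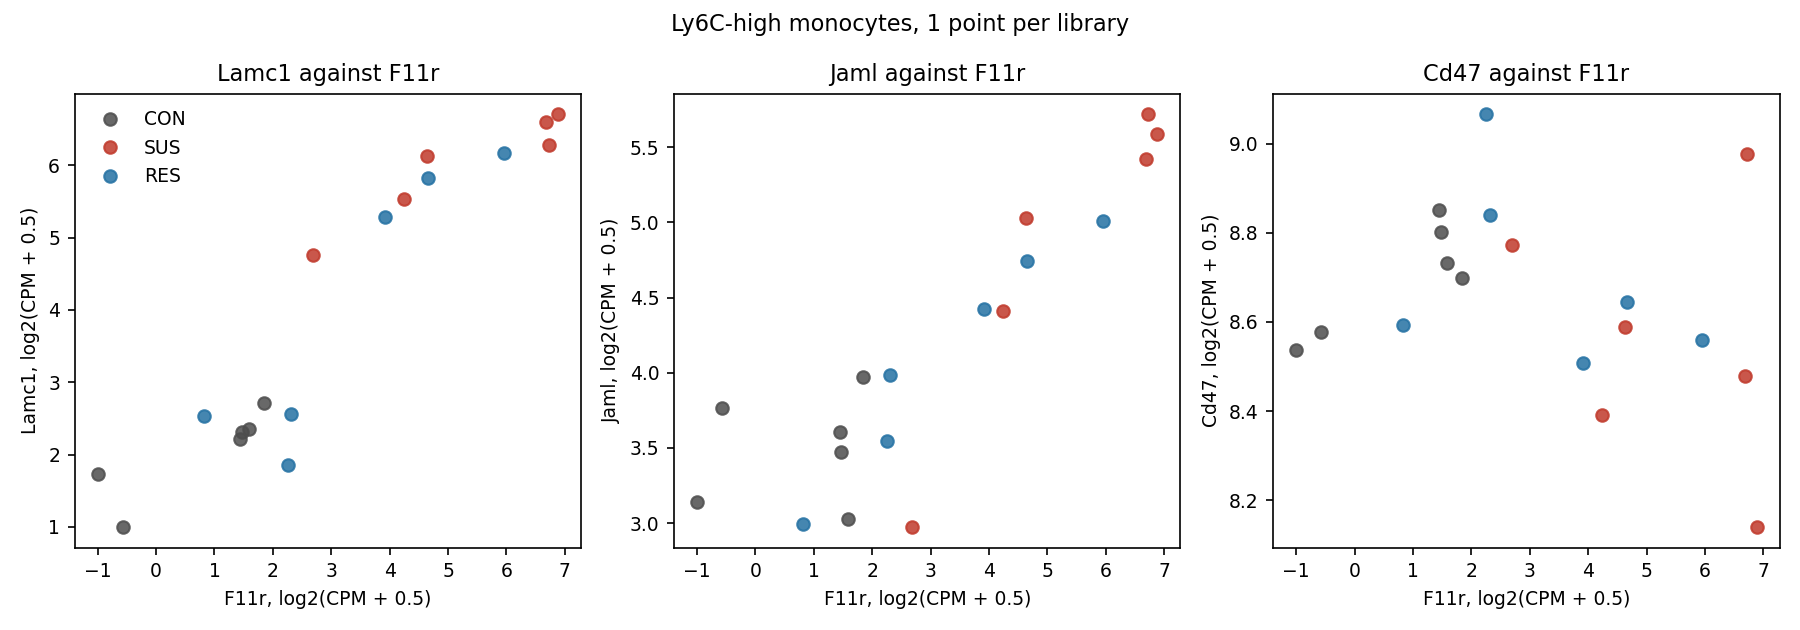
Lamc1, Jaml and Cd47 against F11r as log2(CPM + 0.5) in the 18 Ly6C-high libraries, 1 point per library coloured by group. The points of Lamc1 and Jaml climb with F11r across SUS and RES libraries, and those of Cd47 do not.

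Markers of other blood cells also differed between these libraries. The summed level of 7 red cell genes was 342.8 to 1216 CPM (CON), 1098 to 8996 (SUS) and 1077 to 4351 (RES). The 6 platelet genes summed to 6.06 to 12.1 CPM (CON), 8.72 to 62.1 (SUS) and 9.14 to 22.2 (RES). Of these, Gp1bb averaged under 1 CPM in all 3 groups, Pf4 in CON mice and Gp9 in RES mice. SUS library 14, the highest of its group for F11r and Lamc1, was also the highest for both sums, at 8996 and 62.1 CPM. In RES mice the highest red cell sum, 4351 CPM, was in library 6, with F11r at 4.27 and Lamc1 at 3.12 CPM. The highest platelet sum of RES mice, 22.2 CPM, was in library 18, the highest of its group for F11r and Lamc1. The 4 granule progenitor genes summed to 3.74 to 31.8 CPM (CON), 12.1 to 143.2 (SUS) and 20.1 to 83.5 (RES). The 7 neutrophil genes overlapped between groups (11.8 to 309.4, 28.6 to 1119 and 15.5 to 568.9 CPM), with Ly6g and Cxcr2 under 1 CPM on average in each. Of 5 endothelial genes, Cdh5, Kdr and Tek averaged under 1 CPM in all 3 groups, Egfl7 did so in SUS and RES mice, Tek had no count in any RES library, and the sum was 2.39 to 10.5 CPM (CON), 4.43 to 19.3 (SUS) and 4.09 to 13.5 (RES). With the red cell markers as a covariate, the SUS vs. CON log2 fold change was 3.93 for F11r, 3.46 for Lamc1 and 0.89 for Jaml, and with the platelet markers it was 3.32, 3.35 and 1.12. No member was called in either fit, in which the whole table gave 1 and 3 calls instead of 585. For RES vs. CON mice, F11r was at 2.54 (adjusted p = 1, edgeR) with the red cell and 2.21 (adjusted p = 0.474, edgeR) with the platelet covariate. Lamc1 was at 2.37 (adjusted p = 1, edgeR) with the red cell and 2.38 (adjusted p = 0.235, edgeR) with the platelet covariate. The part of such cells in the differences was not tested further.

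**Figure D3:**
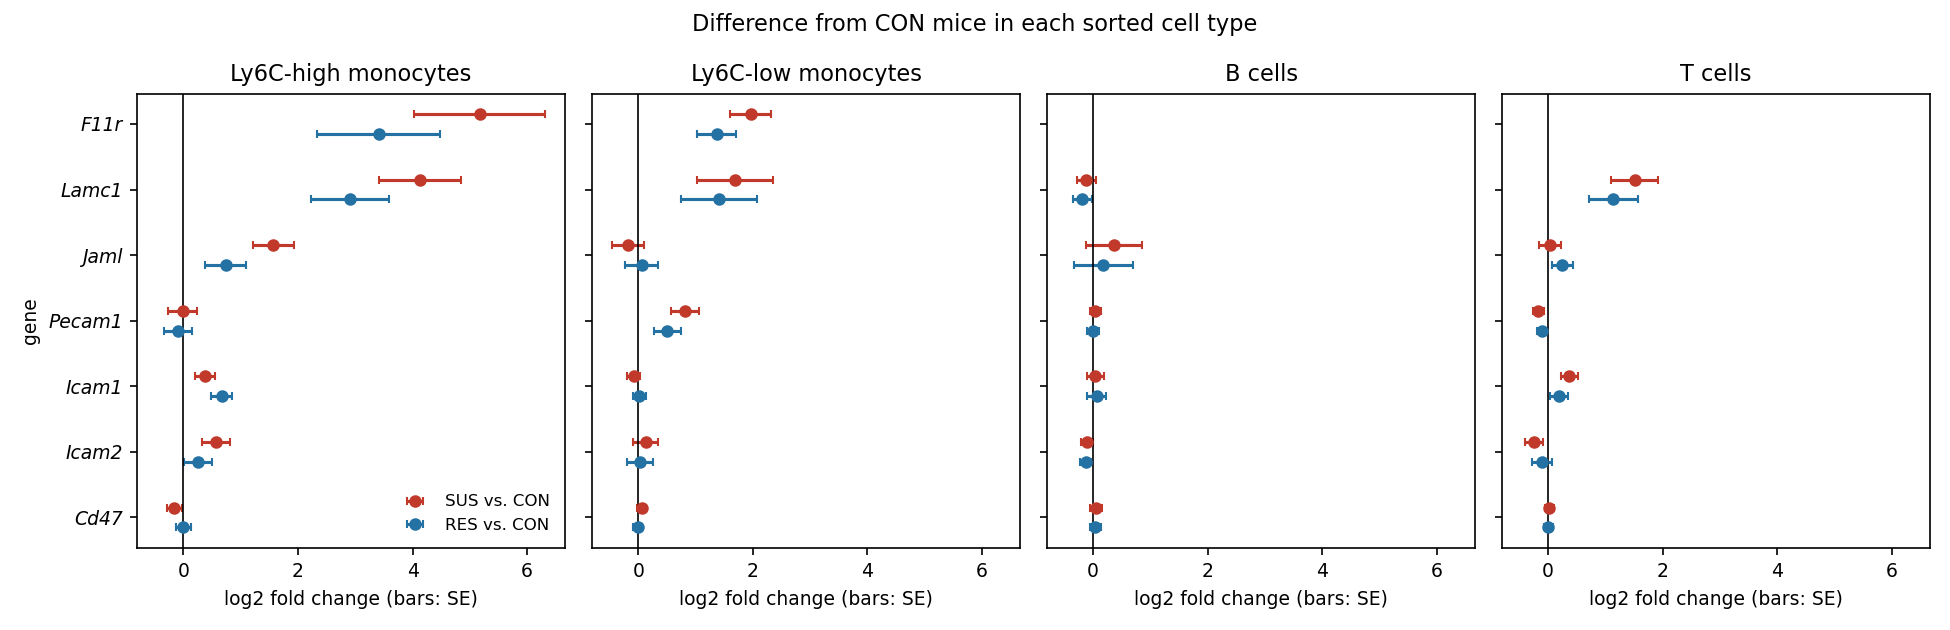
Log2 fold change of each gene from CON mice, with its standard error as a bar, for SUS and RES mice in the 4 sorted cell types (edgeR). F11r is not drawn in B and T cells, where its counts were too few for a fold. The SUS values reach 5.17 for F11r in Ly6C-high monocytes and lie between -0.25 and 0.37 for all genes drawn in B and T cells other than Lamc1 in T cells.

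Ly6C-low monocytes patrol the vessel wall. F11r was at 3.09 to 7.77 CPM in their CON libraries (median 4.64), at 8.42 to 30.1 in SUS (median 21.8) and at 6.72 to 18.6 in RES libraries (median 13.7). The lowest of 6 SUS libraries exceeded the highest of 4 CON libraries, and the RES libraries overlapped CON at their lowest. The log2 fold change was 1.96 (SE 0.35) for SUS vs. CON mice and 1.37 (SE 0.34) for RES vs. CON mice (adjusted p = 0.149, edgeR's quasi-likelihood test). F11r was the 1 member of 7 called between SUS and CON mice, beside 0.0871% of 19521 genes tested. This comparison helped to choose F11r, so nothing is read from that count, and its CON libraries also enter RES vs. CON. F11r was not called without CON library 21, 24 or 29, at fold changes that stayed between 1.79 and 2.23 over all libraries left out in turn.

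Lamc1 in Ly6C-low monocytes was at 3.12 to 3.80 CPM in CON mice, its narrowest spread, at 4.72 to 24.1 in SUS mice and at 1.87 to 23.2 in RES mice. The SUS libraries did not overlap CON, but the log2 fold change of 1.69 (SE 0.67) was not called, and the RES value was 1.41 (SE 0.66, adjusted p = 0.52, edgeR). Jaml, in contrast to the Ly6C-high cells, was at 4.63 to 11.8 CPM in CON, 4.203 to 9.19 in SUS and 6.64 to 10.8 in RES libraries, with log2 fold changes of -0.18 (SE 0.28) and 0.06 (SE 0.29). Pecam1, the endothelial and leukocyte junction molecule CD31, was at 40.2 to 68.7 CPM in CON, 59.8 to 139.2 in SUS and 55.0 to 115.4 in RES libraries. Its log2 fold changes were 0.82 (SE 0.24) and 0.51 (SE 0.24, adjusted p = 0.508 for RES, edgeR). Icam1, Icam2 and Cd47 differed from CON by 0.13 or less in either direction.

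Between RES and CON mice none of the 7 genes was called in Ly6C-low monocytes, beside 0.0154% of all genes, and between SUS and RES mice none was called, as for 0% of all genes by edgeR (740 at an unadjusted p under 0.05, and 0 calls by DESeq2). Over the 7 genes the median log2 fold change was 0.13 for SUS and 0.06 for RES vs. CON mice, against -0.01 over all genes in both. These medians include the chosen genes F11r and Lamc1, and nothing is read from them. In these libraries the red cell sum was 295.3 to 1260 CPM in CON, 860 to 2699 in SUS and 878.3 to 3921 in RES mice, and the platelet sum 11.7 to 14.7, 9.76 to 44.0 and 15.0 to 21.4 CPM. F11r stood at 1.78 with the red cell and 1.97 with the platelet covariate for SUS vs. CON mice, without a call in either fit, in which the whole table gave 2 and 4 calls instead of 17. The sum of 4 NK cell genes was 244.6 to 826.1, 339.0 to 904.8 and 493.1 to 1345 CPM. The endothelial sum was 45.3 to 54.8, 45.0 to 73.5 and 43.3 to 63.1 CPM, with Cdh5, Kdr and Tek under 1 CPM on average in each group.

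B cells offered a test of the stress contrasts in libraries that had no part in choosing the genes. F11r was close to absent from them: 4 of 17 libraries had no count, the median count was 1 (CON), 3.5 (SUS) and 3 (RES), and the highest library, CON 38, had 38 counts (1.45 CPM). Its fold changes are not interpreted at these counts. Lamc1 was at 46.4 to 62.2 CPM in CON, 37.9 to 64.9 in SUS and 28.7 to 63.5 in RES mice, with log2 fold changes of -0.12 (SE 0.17) and -0.19 (SE 0.17). Jaml lay at 1.30 to 5.31, 0.498 to 7.11 and 1.49 to 7.22 CPM, with 0.37 (SE 0.49) for SUS vs. CON mice. Pecam1, Icam1, Icam2 and Cd47 differed from CON by -0.13 to 0.06 in both stressed groups, with standard errors of 0.10 to 0.16. None of the 7 genes was called in any B cell comparison (lowest adjusted p = 0.999, edgeR's quasi-likelihood test), beside 0.00568% of 17620 genes for SUS vs. CON mice and 0% for the other 2 comparisons. Over the whole table, the unadjusted p was under 0.05 for 602, 560 and 240 genes, and DESeq2 gave 26, 6 and 0 calls. Markers of other blood cells differed here too. The red cell sum was 1336.5 to 7887 CPM in CON, 3047 to 12824 in SUS and 3462 to 9713 in RES B cells. The platelet sum was 25.4 to 41.25, 23.2 to 121.3 and 35.2 to 51.0 CPM. The sum of 4 NK cell genes was 3.02 to 5.96, 12.5 to 33.65 and 7.78 to 21.7 CPM. Ncr1 and Klrb1c averaged under 1 CPM in CON B cells. The part of such cells in the B cell values was not tested further.

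In T cells, Lamc1 was at 3.74 to 13.4 CPM in CON mice (median 6.77), 7.77 to 43.1 in SUS mice (median 14.9) and 10.7 to 19.7 in RES mice (median 16.0). The SUS and RES libraries lay above 5 of the 6 CON libraries, and CON library 68 at 13.4 CPM was the exception. The log2 fold change was 1.51 (SE 0.41, adjusted p = 0.315) for SUS vs. CON mice and 1.14 (SE 0.42, adjusted p = 0.983) for RES vs. CON mice in edgeR's quasi-likelihood test. DESeq2 gave the same SUS value of 1.51 with an adjusted p of 0.0133. Without CON library 68 the edgeR value was 1.78 and without SUS library 66 it was 1.16, neither called. F11r did not pass the low-count filter. It had no count in 4 of 6 CON libraries, 3 of 6 SUS libraries and 2 of 5 RES libraries. The remaining 3 RES libraries, however, had 24, 30 and 49 counts, whereas no CON library exceeded 2 counts and no SUS library exceeded 7. These 3 were libraries 61, 64 and 67. The sum of 4 Ly6C-low monocyte genes was 23.1 to 38.2 CPM in T cell libraries 53 to 59. It was 2.55 to 11.2 CPM in libraries 60 to 69. Lamc1 was at 3.74 to 6.70 (CON), 7.77 to 9.10 (SUS) and 10.7 to 13.7 CPM (RES) in the first set. In the second it was at 6.84 to 13.4, 8.92 to 43.1 and 16.0 to 19.7 CPM. The part of this split in the F11r and Lamc1 values was not tested. Icam1 was at 27.0 to 47.2, 38.2 to 63.8 and 35.2 to 59.5 CPM, with 0.37 (SE 0.15, adjusted p = 0.756, edgeR) for SUS vs. CON mice. Pecam1 (-0.17, SE 0.09), Icam2 (-0.25, SE 0.16), Jaml (0.03, SE 0.19) and Cd47 (0.02, SE 0.08) were nearer to 0. None of the 6 genes tested was called in T cells, beside 0.0265% of 18860 genes for SUS vs. CON mice and 0% for each of the other 2 comparisons. Over the whole table, the 3 comparisons had 906, 775 and 451 genes at an unadjusted p under 0.05 and 63, 6 and 2 calls by DESeq2, in place of 5, 0 and 0 by edgeR. The red cell sum was 889.3 to 2836 CPM in CON, 1646 to 4508 in SUS and 1684 to 4649 in RES T cells, and the sum of 4 Ly6C-high monocyte genes was 69.0 to 157.2, 113.0 to 201.3 and 108.5 to 202.4 CPM. Of these 4 genes, Vcan averaged under 1 CPM in CON T cells. In the covariate fits the SUS vs. CON value of Lamc1 was 1.32 with red cell and 1.56 with platelet markers. No fit used the monocyte genes as a covariate, and the part of such cells in the Lamc1 values was not tested further.

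The RES vs. CON change was compared between cell types for each gene by the difference of the differences in 1 fit of all 68 libraries. The CON monocyte libraries helped to choose F11r and Lamc1, so their values are a description without a p-value. Lamc1 differed by 3.12 on the log2 scale between Ly6C-high monocytes and B cells (SE 0.76), by 1.5 (SE 0.77) between Ly6C-high and Ly6C-low monocytes and by 1.79 (SE 0.75) between Ly6C-high monocytes and T cells. F11r differed by 2.03 (SE 1.28) between Ly6C-high and Ly6C-low monocytes. Between Ly6C-high monocytes and B cells it differed by 3.40 (SE 1.48), and against T cells by -1.80 (SE 1.80). The F11r counts of B and T cells were too few to interpret these values. Icam1 differed by 0.65 between the 2 monocyte types (SE 0.23, adjusted p = 0.22, edgeR's quasi-likelihood test). The same difference for SUS vs. CON mice was not computed.

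Several of the 7 genes also differed between cell types of unstressed mice. In these CON mice the 4 NK cell genes summed to 244.6 to 826.1 CPM in Ly6C-low and 1.12 to 37.9 CPM in Ly6C-high monocytes. The same sum was 52.0 to 118.0 CPM in T cells and 3.02 to 5.96 CPM in B cells. The part of NK cells in the Ly6C-low levels was not tested. Pecam1 was at 9.69 ± 1.645 CPM (SD, n = 6) in Ly6C-high monocytes, 54.2 ± 12.9 (n = 4) in Ly6C-low monocytes, 186.1 ± 18.7 (n = 6) in T cells and 288.4 ± 20.9 (n = 6) in B cells. No neighbours in this order overlapped. On the log2 scale Ly6C-high monocytes differed from Ly6C-low monocytes by -2.49 (SE 0.14, adjusted p = 2.95e-13) and from B cells by -4.86 (SE 0.14, adjusted p = 3.75e-20) in edgeR's quasi-likelihood test. Between B and T cells the difference was 0.60 (SE 0.12), below the fold limit.

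Icam2 rose in the order Ly6C-high monocytes (14.95 ± 3.22 CPM), Ly6C-low monocytes (20.4 ± 7.60), T cells (44.7 ± 8.06) and B cells (95.0 ± 6.90), and the 2 monocyte types overlapped. Its log2 difference was 1.05 between B and T cells (SE 0.17, adjusted p = 1.95e-05, edgeR). Icam1 had the reverse order of classes, with 81.7 ± 15.5 CPM in Ly6C-high and 66.6 ± 9.62 in Ly6C-low monocytes, which overlapped, and 39.8 ± 2.69 in B cells and 38.7 ± 7.79 in T cells, which did too. Ly6C-high monocytes exceeded B cells by 1.08 (SE 0.14, adjusted p = 2.11e-07, edgeR), a value close to the fold limit that fell to 1.00 without CON library 4 and 0.94 without CON library 10. Against T cells the value was also 1.08, and it was 0.96 without Ly6C-high library 10 or without T cell library 62. Cd47 was high throughout, at 416.5 ± 35.3 CPM in Ly6C-high and 458.3 ± 23.5 in Ly6C-low monocytes and 221.5 ± 15.3 in B cells and 258.4 ± 9.95 in T cells. The monocyte types overlapped, and B and T cells did not. Ly6C-low monocytes exceeded B cells by 1.09 (SE 0.08, adjusted p = 7.14e-12, edgeR).

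Jaml was highest in T cells, at 21.0 ± 3.76 CPM, followed by Ly6C-high monocytes at 11.1 ± 2.87, Ly6C-low monocytes at 7.25 ± 3.16 and B cells at 2.89 ± 1.39. Each of these overlapped its neighbour in the order. B cells differed from T cells by -2.89 on the log2 scale (SE 0.31, adjusted p = 1.63e-08, edgeR), without overlap. Ly6C-high monocytes differed from T cells by -0.92 (SE 0.29), which passed the fold limit at -1.01 to -1.03 without Ly6C-high library 7 or 10 or T cell library 53. The Jaml excess of Ly6C-low monocytes over B cells, 1.37 (SE 0.32), was 0.99 without CON library 29, and the Icam2 difference of Ly6C-low monocytes from T cells, -1.12, was -0.95 without the same library. Lamc1 in CON mice was highest in B cells, at 54.0 ± 6.515 CPM, above 7.11 ± 3.36 in T cells, 3.93 ± 1.57 in Ly6C-high and 3.39 ± 0.321 in Ly6C-low monocytes. The B cell libraries lay above all others and the other 3 types overlapped. B cells exceeded T cells by 2.90 (SE 0.27, adjusted p = 1.97e-09, edgeR). The B cell level of CON mice thus lay within the 26.7 to 104.0 CPM of SUS Ly6C-high monocytes. F11r in CON mice was at 5.03 ± 1.97 CPM in Ly6C-low and 1.71 ± 1.29 in Ly6C-high monocytes, a log2 difference of -1.57 (SE 1.17) that was not called, with the highest Ly6C-high library at 3.083 and the lowest Ly6C-low library at 3.089 CPM. It was at most 1.45 CPM in B and 0.0462 CPM in T cell libraries.

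Leaving aside F11r and Lamc1, whose CON monocyte libraries helped to choose them, 1 of 5 genes was called between Ly6C-high and Ly6C-low monocytes, beside 11.2% of 21032 genes. Of the same 5, 4 were called between Ly6C-high monocytes and B cells (33.1% of all genes), 3 between Ly6C-high monocytes and T cells (32.8%), 4 between Ly6C-low monocytes and B cells (30.3%) and 3 between Ly6C-low monocytes and T cells (28.5%). Between B and T cells 3 of the 6 genes other than F11r were called (20.2%). Libraries of different cell types were treated as independent, although some may share a mouse.

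**Figure D4:**
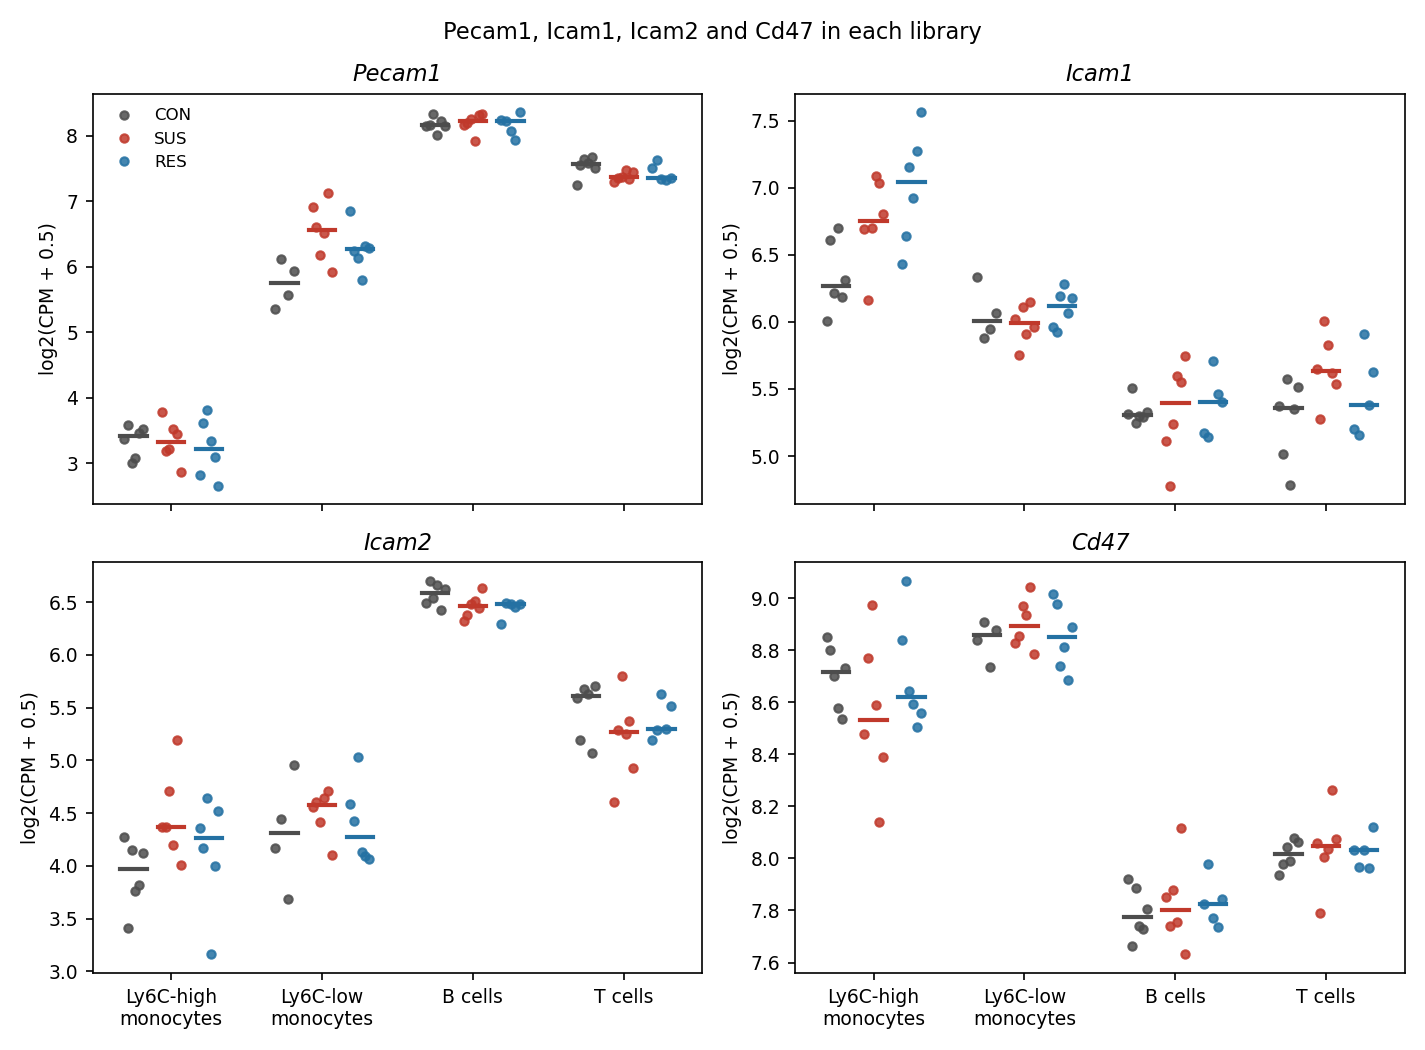
Level of Pecam1, Icam1, Icam2 and Cd47 as log2(CPM + 0.5) in each of 68 libraries (points) by sorted cell type and group, with the group median as a line and a separate axis for each gene. Pecam1 runs from 9.69 CPM on average in Ly6C-high monocytes to 288.4 CPM in B cells of CON mice.

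Levels can be compared between genes only per length, here as mean CPM per kilobase of exon. In Ly6C-high monocytes of CON mice the order was Cd47 (66.4), Icam1 (18.7), Icam2 (7.85), Jaml (3.57), Pecam1 (1.555), F11r (0.642) and Lamc1 (0.475). In SUS mice F11r, at 23.4 CPM per kilobase, ranked 3 of 7, next to Icam1 at 25.05, and Pecam1 at 1.57 was last. In B cells Icam2 (49.9), Pecam1 (46.3) and Cd47 (35.3) led in CON mice and F11r (0.0976) was last. In T cells Cd47 (41.2), Pecam1 (29.9) and Icam2 (23.45) led.

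The counterparts of these molecules were followed in a list of 55 genes (the 7 and 48 others) from the JAM family, the PECAM and ICAM groups, the CD47 axis, laminin chains and receptors, leukocyte integrins, selectin genes and other junction molecules. Of the 33 others tested in Ly6C-high monocytes, 1 was called between SUS and CON mice, higher, beside 3.45% of all genes, and none between RES and CON mice, beside 0.997%. The first is a share near that of all genes. It was Rpsa, which codes for a ribosomal protein also known as a laminin receptor, with a log2 fold change of 1.17 (SE 0.23, adjusted p = 0.00231, edgeR's quasi-likelihood test) and ranges of 1083 to 1297 CPM in CON and 1678 to 5077 CPM in SUS mice. No other gene of the list was called in Ly6C-low monocytes (38 tested), B cells (29) or T cells (38) in any stress comparison, where at most 0.0871% of all genes were called. The median log2 fold change of the others in Ly6C-high monocytes was 0.03 for SUS and 0.08 for RES vs. CON mice.

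The JAM relatives were low in Ly6C-high monocytes. Jam2 averaged 2.64 CPM in CON and 2.06 in SUS mice, Jam3 1.08 and 0.270, and Esam 0.389 and 0.208. Cxadr was at 0.666 to 3.35 CPM in CON and 0 to 0.393 in SUS mice, without overlap, and its log2 fold change of -3.51 (SE 1.37) did not pass (adjusted p = 0.0948, edgeR). Among integrins, Itgb2, the β2 chain that binds ICAM-1, was at 1065 to 1352 CPM in CON, 1309 to 2422 in SUS and 1225 to 2005 in RES mice. Its log2 fold change was 0.43 in SUS (SE 0.15, adjusted p = 0.0657, edgeR) and 0.46 in RES mice. Itgal, the α chain of LFA-1, differed by 0.15 (SE 0.18) and Itgam, the α chain of Mac-1, by 0.28 (SE 0.14) between SUS and CON mice.

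Thbs1, which encodes the CD47 ligand thrombospondin 1 and is carried by platelets as well, was at 33.6 to 60.4 CPM in CON, 30.2 to 142.2 in SUS and 42.1 to 122.1 in RES mice. Its log2 fold change of 0.99 in SUS mice (SE 0.29, adjusted p = 0.0252, edgeR) stayed under the fold limit. Sirpa, the receptor of CD47, was at 836.2 to 1071.5 CPM in CON and 738.7 to 1305 CPM in SUS mice and differed by 0.12 (SE 0.13). Of the other laminin chains, Lamb1, Lamb2 and Lama5 averaged 0.156, 1.54 and 0.649 CPM in SUS mice and 0.460, 1.47 and 1.57 CPM in CON mice. The laminin receptor genes Itga6 and Itgb1 differed by 1.00 (SE 0.43, adjusted p = 0.128, edgeR) and -0.03 (SE 0.13). Cd99l2 was at 13.7 to 18.5 CPM in SUS and 16.0 to 28.3 CPM in RES mice. Of the PECAM and CD99 genes 2 were tested, with a median log2 fold change of 0.01 for SUS vs. CON mice. It was -0.24 for SUS vs. RES mice, and none was called in either comparison. Icam4 had no count in any library, and Icam5 averaged at most 0.262 CPM in Ly6C-high monocytes.

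Likeness of pattern was measured by Pearson's r of log2(CPM + 0.5). Over the 68 libraries, which share cell type and depth differences, the genes most like F11r among 14749 were Stat3 (0.914), Gcnt2 (0.893), Lcp1 (0.892), Grina (0.888) and Fpr1 (0.887). Those most like Lamc1 included Lpxn (0.822), Il4ra (0.800), Psen2 (0.779) and Ptpa (0.775). Within the 18 Ly6C-high libraries, which share the difference between stressed and control mice, Ppt1 (0.962), Ms4a6d (0.961), Ap2a2 (0.947), Flot1 (0.945) and Ifitm2 (0.945) were most like F11r among 14612 genes. For Lamc1 they were Stat3 (0.950), Atp11a (0.944), Slc28a2 (0.944), Flot2 (0.942) and F11r itself (0.939).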

How the data were processed

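RNA-seq libraries of sorted leukocytes were made by the study with a stranded kit. The authors aligned reads to mm10 with HISAT2, counted them per gene with htseq-count against Ensembl release 90, and tested them with DESeq2. The deposited values are raw counts per gene, and the strand option of the counting and the handling of duplicates are not given in the sources used here. Of 52636 gene identifiers, 52403 were matched to a symbol in GENCODE M21. Depth was 19769835 to 67038231 counts over 68 libraries, and libraries 52 and 70 were left out. No 2 of 161 pairs of libraries of a group were identical.

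Groups were taken from the sample labels. Counts were filtered and TMM-scaled in edgeR 4.0.16 (R 4.3.3, limma 3.58.1), and the 3 groups of a cell type were compared in 1 robust quasi-likelihood fit over all genes, with Benjamini-Hochberg adjustment. Genes were called at an adjusted p below 0.05 with a log2 fold change larger than 1 in either direction. CON cell types were compared in a fit of the CON libraries. Standard errors were derived from the F statistic. The steps were tested on simulated data. Alternatives were DESeq2 1.42.0, its size factors, other filters and groups in the fit, red cell or platelet markers as covariates, and each library left out.

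The members, gene lists and tests were chosen with earlier results of these data known. The genes named are the 7 members, called genes and fixed partners of the pathway list, and the 5 genes most like F11r and Lamc1. Of these and of the marker genes, some are not reported here.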

Additional observations from a re-analysis of the deposited data

Results flagged for a closer look

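In 84 groups of libraries tested for a single value far from the rest, 6 were picked out, where chance gives about 1 in 20. F11r in B cells of CON mice was at 1.45 CPM in library 38 and 0 to 0.0332 CPM in the other 5. Icam1 was also highest in that library, at 45.1 CPM against 37.5 to 39.7 CPM. Lamc1 in T cells of CON mice was at 13.4 CPM in library 68 and 3.74 to 7.11 CPM in the others. Jaml was at 10.8 CPM in library 23 of Ly6C-low RES mice against 6.64 to 7.99 CPM, and at 7.22 CPM in library 40 of B cells of RES mice against 1.49 to 3.03 CPM. Icam2 was at 77.6 CPM in library 37 of B cells of RES mice against 87.1 to 89.3 CPM. The RES vs. CON change of Lamc1 differed by 3.12 on the log2 scale between Ly6C-high monocytes and B cells, picked out by edgeR's quasi-likelihood test of the difference. Its CON monocyte libraries helped to choose the gene, so this value is a description, and with only these 2 cell types in the fit it was 3.11 and not called.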

How the results depend on the processing

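No paired analysis was possible because the library numbers are not shared between groups and the labels name no mouse. With the red cell or the platelet covariate, 0 members were called in Ly6C-high monocytes for SUS vs. CON and RES vs. CON mice and 0 in Ly6C-low monocytes for SUS vs. CON mice. For RES vs. CON mice in Ly6C-high monocytes, DESeq2 called 2 members (255 genes in all, against 169 by edgeR), the fit without a low-count filter 0, and leaving out 1 library 0 to 2. Leaving out 1 library gave 0 to 1 in Ly6C-low monocytes for SUS vs. CON mice. DESeq2 called 1 member in T cells for SUS vs. CON mice (63 genes in all, against 5 by edgeR). The difference of Lamc1 between cell types gave 0 calls with only the 2 cell types in the fit. The cause was not tested in any of these. Values turned sign in B cells with the platelet covariate for F11r (-0.53) and Pecam1 (-0.12, both SUS vs. CON), with the red cell covariate for F11r (-0.50, SUS vs. RES), and with libraries 52 and 70 kept for Jaml in B cells (-0.94, SUS vs. RES) and Pecam1 in T cells (0.03, RES vs. CON). Those of F11r rest on median counts of 1 to 3.5 and carry no direction. An uncalled value that changed sign by less than 1 SD between libraries was counted as unchanged, a rule set after the values were seen. Such changes came to 84 of 2292 values with a library left out, at log2 values of at most 0.28, and sign changes in all to 51 of 843 under the other settings, at most 0.37. Of the 5 genes most like F11r or Lamc1, 3 to 4 stayed among the 5 under another pseudocount where the list changed. Counts of at most 38 for F11r in B cells and 49 in T cells limit what can be said there.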
